A study of Rattus norvegicus with 5 samples.

Results

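Immediate-early genes are described here from RNA sequencing of whole rat cornea. The set was chosen by name and holds 10 genes: the Fos family members Fos, Fosb and Fosl1, the Jun family members Jun and Junb, the zinc-finger gene Egr1, the bZIP gene Atf3, the orphan nuclear receptor gene Nr4a1, and the early response genes Ier2 and Ier3. Of the 10, 8 had a row in the deposited gene table of 20339 genes; Junb and Ier2 had none and are not analysed here. All 8 passed the filter on low counts, as did 13304 genes in all. Corneas came from male Sprague-Dawley rats aged 6 months. Of the 5 libraries, 3 were wild-type and 2 transgenic P1 hMR. That line overexpresses human NR3C2, the mineralocorticoid receptor gene, on top of the rat gene. Genotype is the only difference between the groups that the labels give. They do not say what P1 stands for, which cells express the transgene or how many founders the line has, and they record neither the time from death to lysis, nor the order of dissection, nor the time of day. Nothing states whether tissue of several rats was pooled. The p-values therefore set the genotype difference against the spread between these 5 libraries, which need not be that between rats.

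Immediate-early genes are transcribed within minutes of a stimulus, without new protein synthesis, because their promoters are held ready by factors already in the cell. Serum response factor with its Elk and MRTF partners, and CREB, pass on signals from MAP kinases, calcium and cyclic AMP, and the induced messages are short-lived. Fos and Jun proteins pair as the AP-1 dimer, Egr1 binds GC-rich promoters, and in the cornea the response is known from epithelial wounding and stretch. The same genes are widely known to be induced when tissue is cut, warmed or dissociated. In dissected tissue, then, the living state and the handling before lysis cannot be told apart from their level alone.

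Promoter windows were read for the genes with the widest and the narrowest spread between libraries, so that a reader can compare them. RefSeq windows (build GRCr8) matched 6 of the 10 genes: Fosb, Fosl1, Nr4a1, Egr1, Junb and Ier2. Fos, Jun, Ier3 and Atf3 had no entry. Printed below are the 250 bases before the start that the RefSeq promoter table uses for 3 genes, 5′ to 3′ on the strand of the gene. For Fosl1 that start is the outer end of the annotated gene. The Fosb and Nr4a1 windows lie inside the annotated genes (chr1:88082324-88089506 and chr7:134247153-134268044), so other transcripts of these genes may start further out. Capitals mark any match, on either strand, to 6 motifs: the CArG box bound by serum response factor, the cyclic AMP response element TGACGTCA, the core TGACG of that element, the AP-1 site TGANTCA, the Egr site GCGNGGGCG and the TATA box TATAAA. The whole cyclic AMP element holds that core on both strands, so it counts under both.
Nr4a1, chr7:134259888-134260137, plus strand: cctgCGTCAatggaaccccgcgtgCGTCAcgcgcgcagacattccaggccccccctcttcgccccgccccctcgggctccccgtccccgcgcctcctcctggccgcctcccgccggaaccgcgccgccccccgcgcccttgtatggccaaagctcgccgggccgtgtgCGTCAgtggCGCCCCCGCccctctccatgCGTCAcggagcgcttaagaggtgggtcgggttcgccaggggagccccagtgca
Fosb, chr1:88089185-88089434, minus strand: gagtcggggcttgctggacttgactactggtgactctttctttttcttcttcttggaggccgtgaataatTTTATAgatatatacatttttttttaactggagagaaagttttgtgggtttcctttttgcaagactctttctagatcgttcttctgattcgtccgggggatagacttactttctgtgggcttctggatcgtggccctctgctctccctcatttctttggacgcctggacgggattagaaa
Fosl1, chr1:212183635-212183884, plus strand: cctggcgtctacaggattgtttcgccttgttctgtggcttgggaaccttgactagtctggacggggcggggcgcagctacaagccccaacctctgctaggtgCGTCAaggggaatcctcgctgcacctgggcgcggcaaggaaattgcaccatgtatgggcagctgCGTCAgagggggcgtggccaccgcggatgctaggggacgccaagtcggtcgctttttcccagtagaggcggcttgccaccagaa

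The Nr4a1 window held 4 copies of the core TGACG (all read as CGTCA on the gene's strand) and 1 Egr site. Fosl1 held 2 TGACG cores, and Fosb held only 1 TATA box, read on the opposite strand. The Egr1 window held 2 CArG boxes, CCATATTAGG at 105 to 96 bases and CCATATATGG at 83 to 74 bases before the start, and 2 TGACG cores. Ier2 held 1 whole cyclic AMP element and Junb 1 TGACG core and 1 TATA box. Among all 33469 windows of 300 bases, 1.64% held a CArG box, 1.83% the whole cyclic AMP element, 21.2% the TGACG core, 7.33% the AP-1 site, 4.98% the Egr site and 14.2% the TATA box. A match is a run of letters, and none of these data show a factor bound there.

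The libraries held between 20874010 and 30449675 expected counts, and mitochondrial genes took 3.65% to 4.46% of them. Human NR3C2 had 0 counts in each wild-type library and 1094 and 1146 in the transgenic ones, as their labels state. The tissue label was checked against 12 markers of corneal epithelium, of which 9 had a row. None of the 9 was at 0, and their summed level ran from 108447 to 122394 CPM in wild-type and from 100595 to 126697 CPM in transgenic corneas. CPM, the usual unit of counts relative to the total of a library, were scaled by TMM factors, which make the bulk of genes comparable between libraries. Values are not divided by transcript length, so levels are compared between libraries and not between genes.

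Wild-type library 1 had the highest level of 7 of the 8 immediate-early genes, all but Fosl1. Over all genes tested, that library was the highest for 18.8%, against 24.9% for wild-type 2, 17.9% for wild-type 3, 15.2% for transgenic 1 and 23.1% for transgenic 2. The count of 7 was the same with median-ratio scaling and with library totals alone. The lead of wild-type 1 was widest for Nr4a1, Fosb and Egr1 and slight for Fos, Jun, Ier3 and Atf3.

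**Figure D1:**
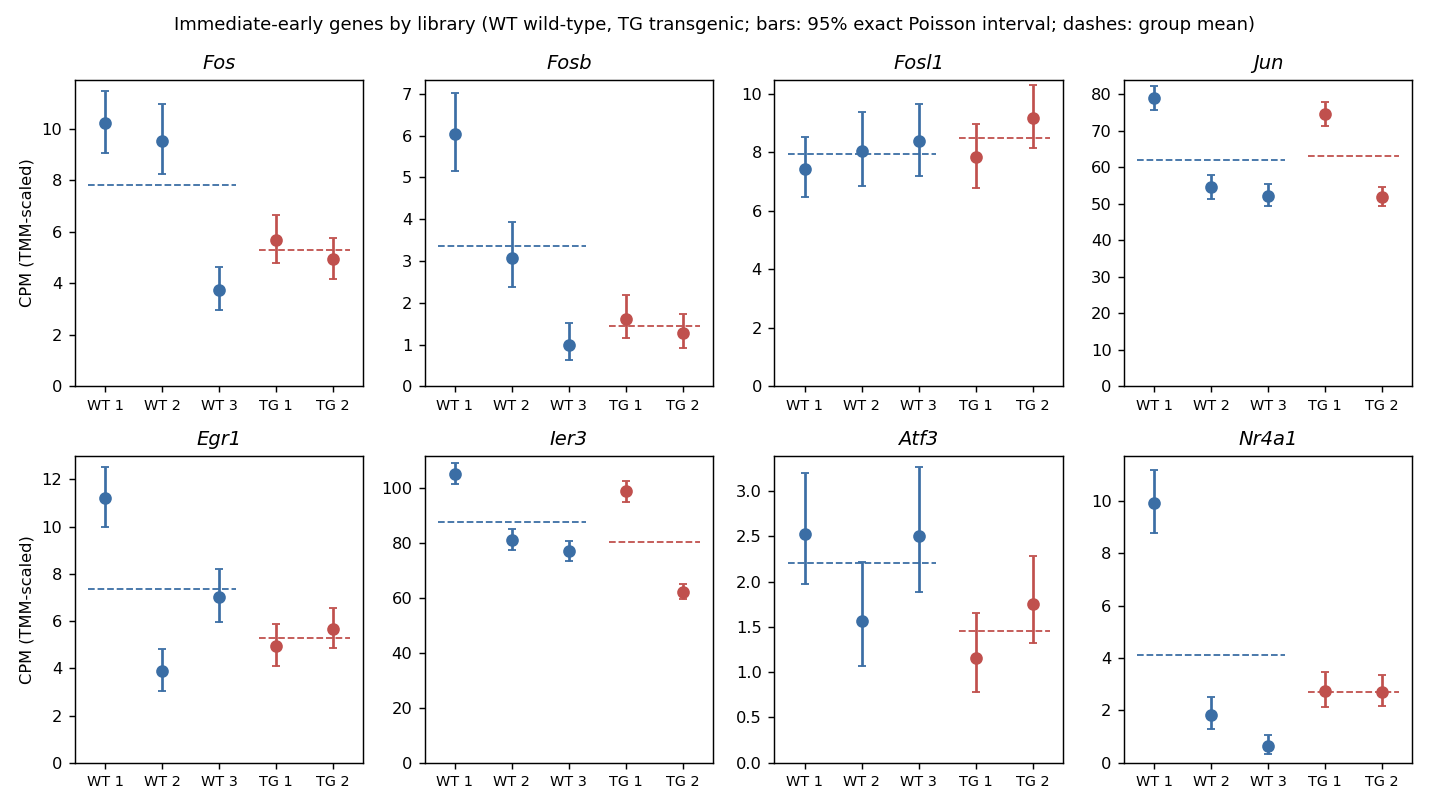
Level of each of the 8 genes (CPM, vertical axis starting at 0) in 3 wild-type (blue) and 2 transgenic (red) cornea libraries. Points are libraries, bars are 95% exact Poisson intervals that cover counting error only, and dashes are group means; wild-type 1 lies highest in every panel except Fosl1.

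Nr4a1, which encodes the orphan receptor Nur77, spread most. It had 9.93 CPM in wild-type 1, 1.81 in wild-type 2 and 0.637 in wild-type 3, while transgenic 1 and 2 had 2.74 and 2.71 CPM. Wild-type 1 thus stood 5.48-fold above wild-type 2 and 15.6-fold above wild-type 3, and the transgenic pair, 1.01-fold apart, lay between the wild-type extremes. The wild-type 3 value rests on 14 counts, with a 95% exact Poisson interval of 0.349 to 1.07 CPM, which does not reach the interval of any other library.

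Within the Fos family, Fos and Fosb ranked the 5 libraries in the same order, and Fosl1 did not. Fos, the founding AP-1 subunit, had 10.2, 9.54 and 3.73 CPM in the wild-type corneas and 5.67 and 4.93 CPM in the transgenic ones. For Fos, wild-type 1 and 2 were both high, wild-type 3 was the lowest of all 5, and the transgenic pair fell between. Fosb, a close relative, had 6.03, 3.08 and 1.00 CPM among wild-type and 1.62 and 1.27 CPM among transgenic corneas. The order was that of Fos, and the highest library was 6.02-fold above the lowest, against 2.74-fold for Fos. Fosl1, which encodes Fra-1, a subunit that cells accumulate under longer stimulation, had 7.44, 8.03 and 8.38 CPM among wild-type and 7.83 and 9.17 CPM among transgenic corneas. Its 5 values spanned 1.23-fold, with wild-type 1 the lowest. Fosl1 counts are fractional in the table, so some of its reads were shared with another feature.

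Jun, the main partner of Fos, had 78.9, 54.5 and 52.2 CPM among wild-type and 74.4 and 51.9 CPM among transgenic corneas. Ier3, an early response gene linked to cell survival, had 105, 81.2 and 77.0 CPM among wild-type and 98.9 and 62.4 CPM among transgenic corneas. Both genes were high in wild-type 1 and in transgenic 1, so each genotype had 1 library above the rest. Transgenic 1 exceeded transgenic 2 by 1.43-fold for Jun and 1.59-fold for Ier3, whereas wild-type 2 exceeded wild-type 3 by only 1.04-fold and 1.05-fold. These 2 genes had 1113 to 2919 counts in every library, and their Poisson intervals separate the high from the low libraries.

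Egr1, a zinc-finger activator induced by growth factors and injury, had 11.2, 3.87 and 7.01 CPM among wild-type and 4.94 and 5.67 CPM among transgenic corneas. Wild-type 1 was again the highest, but wild-type 2, second highest for Fos and Fosb, was the lowest library for Egr1. Atf3, a stress-induced repressor that pairs with Jun, had 2.53, 1.57 and 2.504 CPM among wild-type and 1.16 and 1.75 CPM among transgenic corneas. For Atf3, wild-type 1 and 3 were level, and counts of 30 to 70 per library leave overlapping intervals for most pairs of libraries.

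The spread between libraries was measured as the SD of log2(CPM + 0.5) about the genotype means, with 3 degrees of freedom, which leaves the difference between genotypes out. It was 1.33 for Nr4a1, 0.88 for Fosb, 0.62 for Fos, 0.59 for Egr1, 0.34 for Jun, 0.33 for Ier3, 0.31 for Atf3 and 0.11 for Fosl1. The median of the 8 was 0.46, against 0.15 over all 13304 genes tested. Nr4a1 spread more than 99.8% of all genes, Fosb more than 99.3%, Fos more than 97.7% and Egr1 more than 97.3%. Jun, Ier3 and Atf3 exceeded 86.8%, 86.3% and 84.0% of genes, and Fosl1 exceeded 32.5%.

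Low counts spread more by counting alone, so each gene was also set beside the genes whose mean lay within 2-fold of its own. Nr4a1 exceeded 99.3% of 1978 such genes, Fosb 97.5% of 1823, Ier3 97.1% of 3398, Jun 96.9% of 3898, Fos 96.7% of 2711 and Egr1 96.1% of 2659. Atf3, at 57.7% of 1667 genes, and Fosl1, at 19.8% of 2965, were within the usual range for their level. Poisson counting would give an SD near 0.23 for Nr4a1, 0.22 for Fosb, 0.12 for Fos and for Egr1, 0.04 for Jun and 0.03 for Ier3, all well under the observed values. For Fosl1 it would give 0.10, close to the 0.11 seen, and for Atf3 0.22, below the 0.31 seen. These counting values hold no pseudocount, unlike the observed SD, so at low CPM the 2 are not strictly alike.

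**Figure D2:**
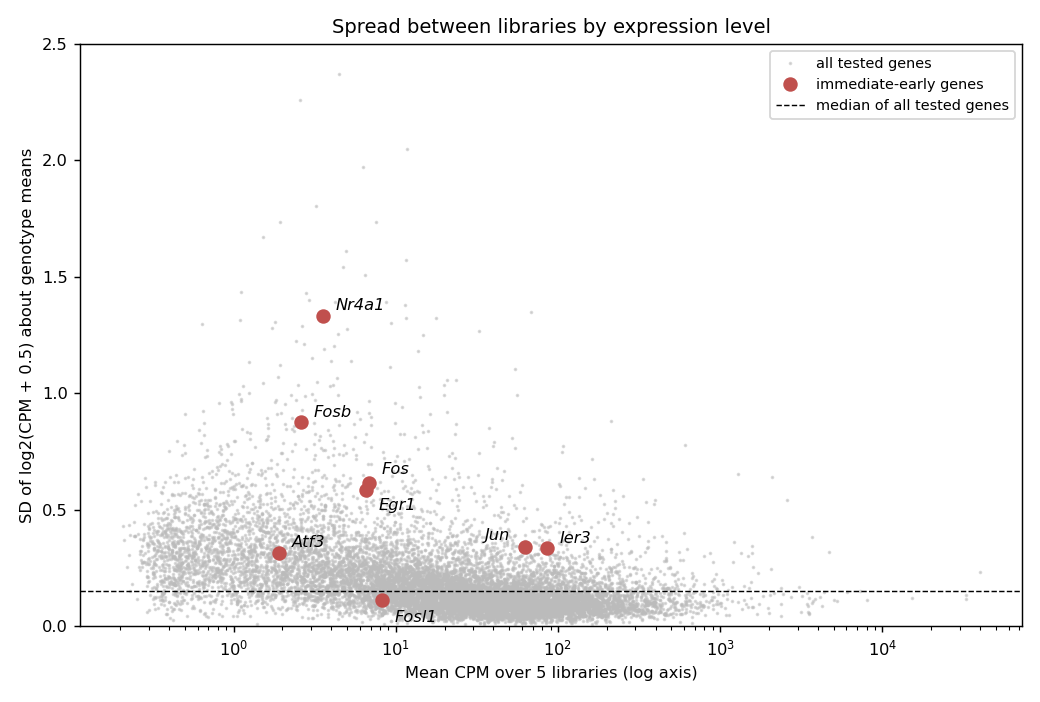
Spread between libraries (SD of log2(CPM + 0.5) about genotype means, vertical axis) against mean level (CPM, log axis) for all 13304 genes tested (grey) and the 8 immediate-early genes (red). Nr4a1, at 1.33, and Fosb, at 0.88, stand far above the dashed median of all genes at 0.15, while Fosl1, at 0.11, lies below it.

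Much of this spread lay among the wild-type corneas. For 4 of the 8 genes (Nr4a1, Fosb, Egr1 and Fos) the highest wild-type library was at least 2-fold above the lowest, as it was for 10.3% of all genes tested. The spread did not end with wild-type 1. Without it, wild-type 2 still exceeded wild-type 3 by 3.08-fold for Fosb, 2.84-fold for Nr4a1 and 2.56-fold for Fos, or 3 of 8 genes at 2-fold, against 5.89% of all genes. Among the 4 remaining libraries no single one led. Transgenic 1 was the highest for 3 genes (Jun, Ier3 and Nr4a1), wild-type 2 for 2 (Fos and Fosb), wild-type 3 for 2 (Egr1 and Atf3) and transgenic 2 for Fosl1, where the shares over all genes were 19.7%, 31.5%, 21.4% and 27.4%. Leaving out wild-type 1 brought the median SD of the 8 genes to 0.38 and that of all genes to 0.14, and brought Nr4a1 to 0.51. Egr1 went to 0.33 without wild-type 2, and Fos and Fosb went to 0.10 and 0.45 without wild-type 3, so most of the spread of Fos rested on that 1 library. The higher of the transgenic pair exceeded the lower by a median of 1.22-fold over the 8 genes and 1.12-fold over all genes.

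None of the 8 genes passed the test of transgenic against wild-type corneas. By edgeR's quasi-likelihood test with Benjamini-Hochberg adjustment over 13304 genes, 0 of 8 were called higher and 0 of 8 lower, where 0.00752% of all genes (1 gene, NR3C2) were called higher and 0% lower. At an unadjusted p under 0.05 the count was also 0 of 8, against 6.32% of all genes, and DESeq2 and limma voom called 0 of 8 as well. Transgenic and wild-type values overlapped for all 8 genes, while the transgenic pair lay entirely above the wild-type range for 12% of all genes and entirely below it for 10.7%.

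Fold changes came with wide errors. The fitted level was lower in the transgenic group for 6 of the 8 genes, and the median of their log2 fold changes was -0.52, against -0.01 over all genes. Fosb had a log2 fold change of -1.23 ± 0.71 (SE; edgeR adjusted p = 0.843), Nr4a1 -0.62 ± 1.23, Atf3 -0.59 ± 0.37, Fos -0.57 ± 0.42 and Egr1 -0.48 ± 0.42. For Ier3 it was -0.13 ± 0.23, for Jun 0.03 ± 0.24 and for Fosl1 0.10 ± 0.17. Adjusted p-values of edgeR lay between 0.843 and 0.992.

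Single libraries moved these values. Without wild-type 1 the log2 fold change of Nr4a1 turned from -0.62 to 1.17 and that of Ier3 from -0.13 to 0.03, that of Egr1 shrank to -0.03, and Fos and Fosb went to -0.31 and -0.49. Without wild-type 3, the lowest library for Fos and Fosb, they went to -0.90 and -1.66. Jun was negative without wild-type 2 (-0.05), wild-type 3 (-0.08) or transgenic 1 (-0.26). Without transgenic 2, Ier3 was positive (0.17) and Fosl1 negative (-0.02). Fos, Fosb, Egr1 and Atf3 stayed negative under every scaling, tool and left-out library tried, and none of the 8 genes passed under any of them.

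**Figure D3:**
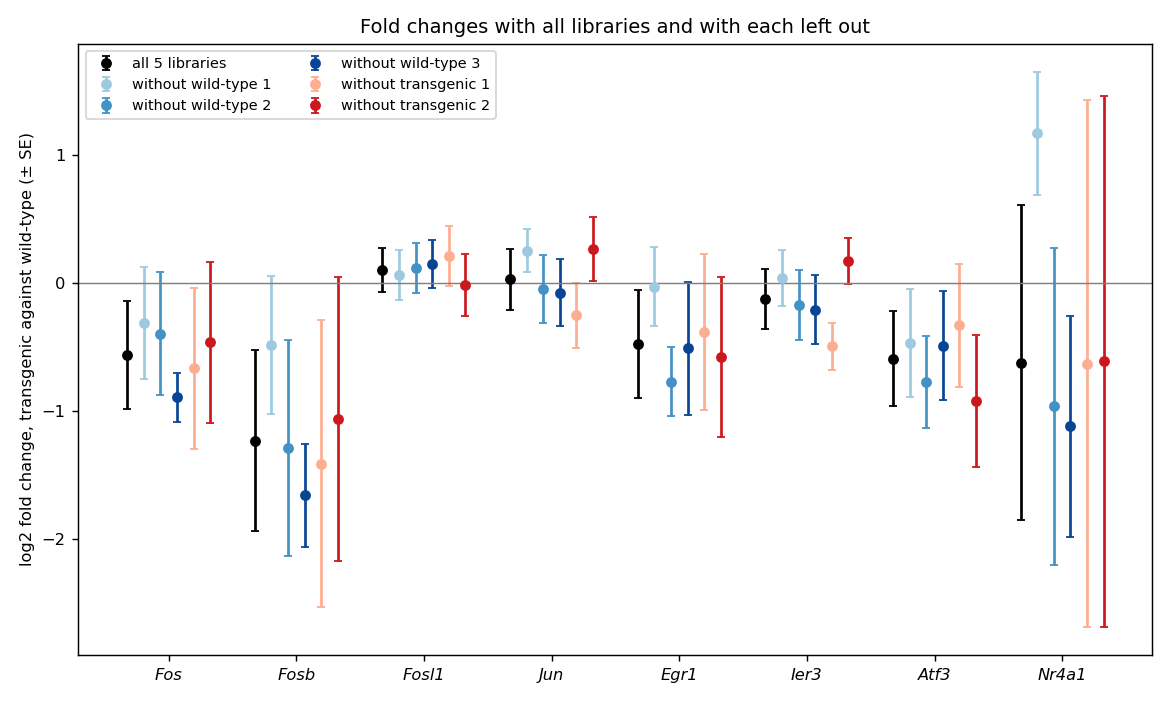
Log2 fold change of transgenic against wild-type corneas (vertical axis, points with ± SE from edgeR) for each gene with all 5 libraries (black) and with each library left out in turn. Nr4a1 moves from -0.62 to 1.17 without wild-type 1, while Fosl1 stays between -0.02 and 0.21.

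Isoforms were compared for Fosb, which has 2 isoform rows that both carry counts. The isoform ENSRNOT00000072149 held 49.5%, 6.43% and 100% of the gene's count in wild-type 1, 2 and 3, and 57.0% and 42.2% in transgenic 1 and 2. The isoform ENSRNOT00000091687 held 36.3%, 74.3% and 0% in wild-type and 34.6% and 57.9% in transgenic corneas. These shares rest on counts of 0 to 82.7 per isoform that are estimates from shared reads, and were not tested between libraries. The 2 rows sum to 143 of 167 gene counts in wild-type 1 and to 50.9 of 63 in wild-type 2, so a part of the gene's count lies outside them. Fos, Fosl1, Jun, Egr1, Ier3 and Atf3 each had a single isoform row, and Nr4a1 had 1 isoform with all of its count except 4.96% in transgenic 2. Neither Fosb isoform passed the edgeR test over 27110 isoforms (log2 fold changes -0.93 ± 1.17 and -1.18 ± 1.72, both with an edgeR adjusted p of 1.00).

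Other immediate-early genes showed the lead of wild-type 1 too. Of 37 further genes, listed with earlier results of these data known, 34 had a row and 30 were tested. Wild-type 1 was the highest library for 18 of the 30. Their median SD was 0.31, between that of the first 8 genes and that of all genes. Egr3, a relative of Egr1, had 4.19 CPM in wild-type 1, 0.685 and 0.637 in wild-type 2 and 3, and 1.62 and 0.509 in transgenic 1 and 2. Egr2 was too low to test, and Egr4 was at 0 in all libraries.

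A few more of these genes, picked after their values were seen, are given as examples and do not show how far the pattern reached. Of the 30 tested, 18 were highest in wild-type 1, and 4 each in wild-type 2, transgenic 1 and transgenic 2. Arc, known best from neurons, had 4.22, 1.42 and 0.911 CPM among wild-type and 1.81 and 1.56 CPM among transgenic corneas, the same order of the highest and lowest library as Nr4a1. Btg2, an antiproliferative gene, had 13.8, 6.21 and 5.19 CPM among wild-type and 9.02 and 8.34 CPM among transgenic corneas. Ccn1, a matrix-associated protein gene driven by serum response factor, had 83.0, 74.4 and 32.2 CPM among wild-type and 59.0 and 52.7 CPM among transgenic corneas. Ccn1 followed Fos, with wild-type 1 and 2 high and wild-type 3 lowest. Klf4, an abundant epithelial factor in this list, stayed between 1048 and 1270 CPM in all libraries.

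**Figure D4:**
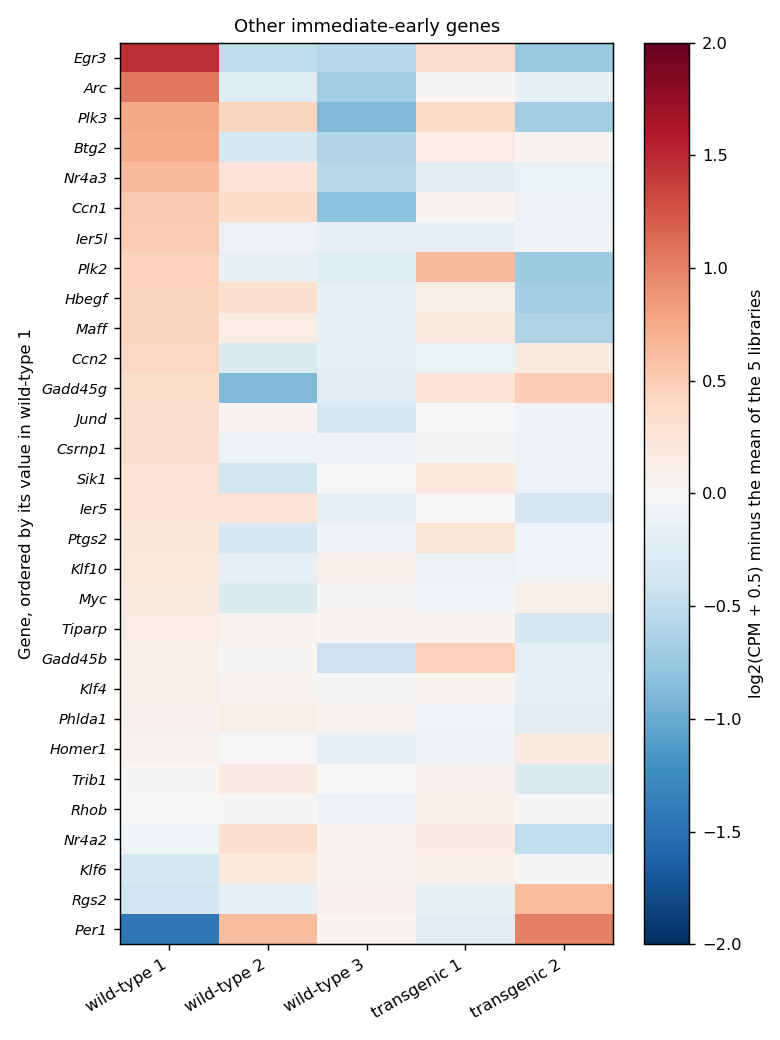
Log2(CPM + 0.5) of 30 other immediate-early genes (rows, ordered by their value in wild-type 1) in the 5 libraries (columns), each as a deviation from the gene's mean over libraries (red above, blue below). Red prevails in wild-type 1, the highest library for 18 of the 30, and Per1 at the bottom goes the other way.

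Of these 30 genes 0 were called by edgeR, 1 (Phlda1, lower in transgenic corneas) had an unadjusted p under 0.05, and 13 of 30 had a higher fitted level in transgenic corneas. Per1, a clock gene that is also rapidly induced, went the other way: it had 17.5 CPM in wild-type 1, 73.6 and 49.2 in wild-type 2 and 3, and 41.1 and 96.7 in transgenic 1 and 2, so wild-type 1 was its lowest library. Wild-type 1 was the lowest for 3 of the 30 genes. The others were Klf6, at 93.8 CPM there and 117 to 140 CPM in the other libraries, and Rgs2, at 3.97 CPM there and 4.80 to 8.60 CPM elsewhere.

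Genes whose products shut the response down had a lower median SD, though list medians here and below are not matched for expression level. Of 21 listed feedback inhibitors, such as MAP kinase phosphatases, Sprouty proteins and the mRNA-decay factor Zfp36, 17 were tested. Dusp1, Spred1 and Socs3 had no row. Wild-type 1 was highest for 9 of the 17, their median SD was 0.18, and 0 were called (0 with an unadjusted p under 0.05). Beside genes within 2-fold of their own mean, single inhibitors exceeded from 17.2% (Dusp10) to 93.8% (Dusp5). Most of them exceeded the larger part of such genes. Dusp8, a phosphatase of Jun kinases, had 2.27, 1.37 and 0.637 CPM among wild-type and 0.656 and 1.21 CPM among transgenic corneas. Dusp4, which acts on ERK, had 1.77, 1.52 and 2.05 CPM among wild-type and 1.08 and 1.94 CPM among transgenic corneas, with no lead of wild-type 1.

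Kinases and standing factors upstream of the response spread little by median SD, again not matched for level. All 25 of 27 listed genes that had a row were tested, with a median SD of 0.12, and wild-type 1 was the highest for 5 of them. Their 0 calls came with 0 genes at an unadjusted p under 0.05. Within this list Rps6ka5, which encodes the kinase MSK1, spread most, at 10.2, 8.07 and 15.3 CPM in wild-type and 13.1 CPM in both transgenic corneas. Elk3, a partner of serum response factor, had 106, 109 and 82.9 CPM among wild-type and 95.5 and 72.6 CPM among transgenic corneas. Of 15 other bZIP partners of AP-1, 11 were tested, with wild-type 1 highest for 4, a median SD of 0.21 and 0 calls (0 at an unadjusted p under 0.05). Jund, highest in wild-type 1, is also counted among the other immediate-early genes above. Among these partners Mafk, whose counts are fractional, had 6.72, 0 and 4.01 CPM among wild-type and 4.36 and 1.08 CPM among transgenic corneas. Batf2 had 6.86, 8.56 and 7.56 CPM against 7.90 and 4.07 CPM.

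Genes known to follow AP-1 or Egr1 with a delay were mixed. Of 22 listed, 15 were tested and 0 called (1, Mmp9, had an unadjusted p under 0.05), and wild-type 1 was the highest for 7. Krt17, a keratin of stressed epithelium with fractional counts here, had 11.9, 3.08 and 3.23 CPM among wild-type and 1.504 and 2.48 CPM among transgenic corneas, with wild-type 1 well above the rest. Il6 and Cxcl2 were too low to test, each at 0 in at least 1 library.

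The listed heat shock genes showed no lead of wild-type 1. All 14 with a row were tested, their median SD was 0.11, and wild-type 1 was the highest for 1 of 14 (Hsp90aa1), whereas wild-type 2 was the highest for 10. None was called, and 1, again Hsp90aa1, had an unadjusted p under 0.05. Hspa5, an endoplasmic reticulum chaperone, had 239, 353 and 326 CPM among wild-type and 352 and 346 CPM among transgenic corneas, lowest in wild-type 1. Hspe1, a mitochondrial chaperonin, had 24.5, 25.2 and 20.2 CPM among wild-type and 22.2 and 25.1 CPM among transgenic corneas. Hypoxia genes had a median SD of 0.17 over 14 genes, slightly above that of all genes, and 2 of the 14 (Ankrd37 and Ca9) were at least 2-fold apart among wild-type corneas. Wild-type 1 was the highest for 0 of the 14, and 0 were called (2, Pfkfb4 and P4ha1, had an unadjusted p under 0.05). Ca9, a carbonic anhydrase of this list, had 2.67, 4.11 and 7.06 CPM among wild-type and 4.86 and 5.13 CPM among transgenic corneas, and the oxygen sensor gene Egln3 248, 265 and 193 CPM against 236 and 179 CPM.

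**Figure D5:**
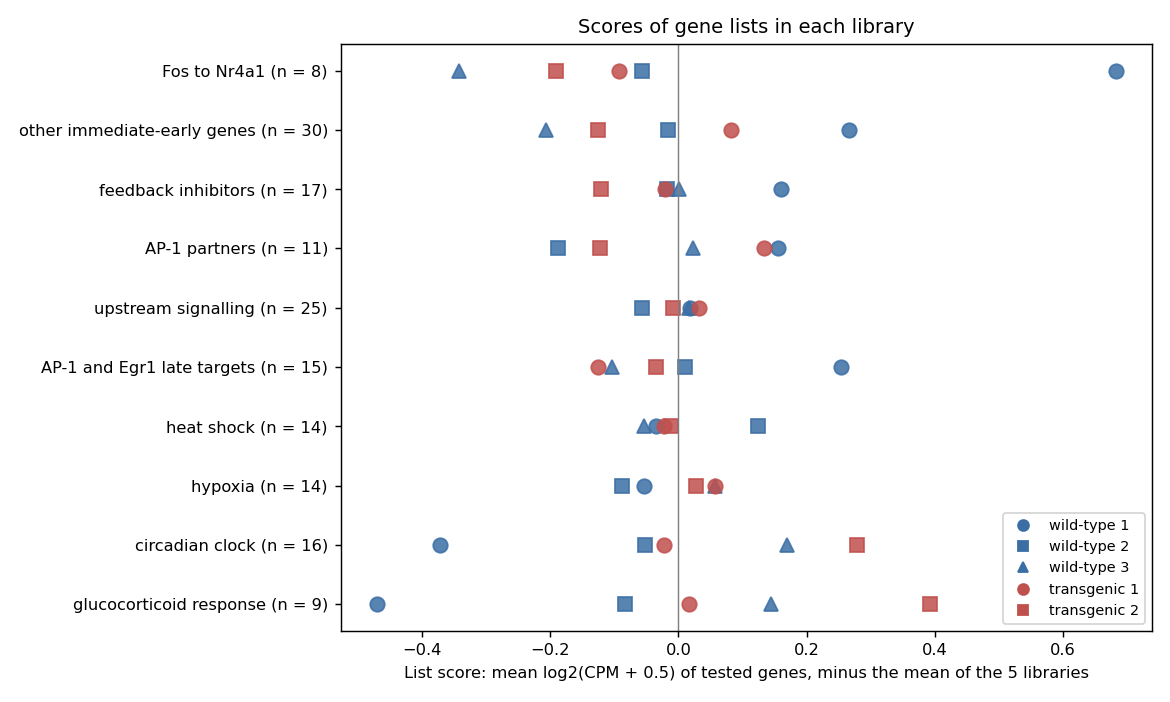
Score of each list in each library: the mean log2(CPM + 0.5) of its tested genes, minus the mean of the 5 libraries (horizontal axis, log2 units); wild-type in blue, transgenic in red, with the shape giving the replicate. Wild-type 1 stands apart at 0.68 for Fos to Nr4a1, while scores of heat shock and upstream signalling genes stay within 0.18 and 0.09 of each other.

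Scored over the 8 genes, the libraries stood at 0.68 for wild-type 1, -0.06 for wild-type 2, -0.34 for wild-type 3, -0.09 for transgenic 1 and -0.19 for transgenic 2. So the 3 wild-type scores bracketed both transgenic ones. The other immediate-early genes gave 0.27, -0.02, -0.21, 0.08 and -0.13 in the same order of libraries, with the same highest and lowest library. With a pseudocount of 5 the scores of the 8 genes were 0.39, -0.05, -0.16, -0.03 and -0.14. The low score of wild-type 3 came mostly from Nr4a1, Fosb and Fos, at -1.44, -0.82 and -0.70 from their means. Jun and Ier3 were slightly low there, and Egr1, Atf3 and Fosl1 lay above their means.

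Clock and corticosteroid-responsive genes had their lowest score in wild-type 1 and their highest in transgenic 2. Clock scores were -0.37, -0.05 and 0.17 in wild-type and -0.02 and 0.28 in transgenic corneas, over 16 genes whose median SD was 0.50. Wild-type 1 was the lowest library for 11 of the 16 and the highest for 5, so the score averages genes that moved both ways. Transgenic 2 was the highest for 8 of the 16. Over all genes tested, wild-type 1 was the lowest for 19.2% and the highest for 18.8%, and transgenic 2 the highest for 23.1%. The clock gene Ciart had 1.66, 3.52 and 8.15 CPM among wild-type and 5.90 and 14.8 CPM among transgenic corneas. Scores of 9 corticosteroid-responsive genes, which share Per1 with the clock list, Errfi1 with the feedback list and Ddit4 with the hypoxia list, were -0.47, -0.08 and 0.14 in wild-type and 0.02 and 0.39 in transgenic corneas. Wild-type 1 was the lowest for 5 of the 9 and the highest for 2, and transgenic 2 was the highest for 6. Zbtb16, a gene of this list, had 0.578, 0.587 and 3.10 CPM among wild-type and 1.504 and 3.47 CPM among transgenic corneas. Neither list had a called gene (edgeR; 1 of 16, Cry1, and 0 of 9 had an unadjusted p under 0.05). The part of time of day, of circulating hormone and of tissue handling in the level of the immediate-early genes was not tested.

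Markers of other tissues and cell types also differed between libraries. The 11 lens markers summed to 149.6 CPM in wild-type 1, 34.7 and 27.0 CPM in wild-type 2 and 3, and 18.9 and 11.9 CPM in transgenic corneas, and wild-type 1 was the highest for all 9 of them that were tested. Crygd and Mip were at 0 in at least 1 library. The 8 pigment-cell markers summed to 50.2, 10.3 and 36.0 CPM among wild-type and 88.8 and 164 CPM among transgenic corneas, where Mlana was at 0 in wild-type 2. The 10 leukocyte markers summed to 91.1 up to 101 CPM among wild-type corneas and from 82.1 to 94.996 CPM among transgenic ones, with the T-cell marker Cd3e at 0 in transgenic 1. Blood markers, mostly the globin gene Hba-a1, summed to 9.06, 2.496 and 4.69 CPM among wild-type and 7.40 and 4.998 CPM among transgenic corneas. Hba-a2, Alas2 and Slc4a1 of that list were at 0 in at least 1 library. Skeletal muscle markers, 6 with a row, summed to 28.2, 16.8 and 12.3 CPM among wild-type and 18.4 and 20.3 CPM among transgenic corneas, with wild-type 1 the highest and wild-type 3 the lowest library, as in the score of the 8 genes. Ckm and Myl1 of that list were at 0 in at least 1 library. The 4 conjunctival markers with a row summed to 2625, 3779 and 4194 CPM among wild-type and 2902 and 5510 CPM among transgenic corneas, lowest in wild-type 1, and Muc5b and Agr2 were at 0 in at least 1 library. Besides the pigment-cell sums, which were higher in both transgenic corneas, and the lens sums, which were lower, 4 further sums did not overlap between the groups, all higher in transgenic corneas. They were those of 11 stromal keratocyte markers (2926 to 3052 CPM for wild-type, 3584 to 3901 CPM for transgenic), 8 endothelial markers (1842 to 1938 against 2023 to 2046 CPM), 7 blood vessel markers (70.6 to 87.3 against 96.9 to 105 CPM) and 7 Schwann cell and nerve markers (159 to 197 against 201 to 204 CPM). Of single genes, 12% lay wholly above and 10.7% wholly below the wild-type range. In whole tissue a larger number of expressing cells and more RNA per cell cannot be told apart, and the part of these markers in the level of the immediate-early genes was not tested.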

How the data were processed

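RNA of rat cornea was sequenced in 5 libraries, with a gene table and an isoform table. The authors deposited estimated counts (expected counts) per gene and isoform; that they are not normalized was read from their fractional values and unequal totals. The tools named, per the submitters' processing notes and with no role or order, are RSEM 1.2.28, STAR 2.5.3a, fastp, FastQC, edgeR 3.28.0 and DESeq2 1.26.0, with build rn6. No source used here gives the strand setting, so overlapping and antisense genes cannot be told apart. Reads shared by transcripts are divided in such estimates, so isoform values are less certain than gene values. Columns were matched to samples by the sample descriptions.

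Counts were rounded, filtered by filterByExpr (minimum count 10), scaled by TMM and tested with edgeR 4.0.16 (quasi-likelihood F test, robust, two-sided) in R 4.3.3, genotype being the only term, with Benjamini-Hochberg adjustment over all genes tested and a threshold of 0.05. SE is the log2 fold change divided by the square root of F. Log2 levels use CPM plus a pseudocount of 0.5. The test was checked on simulated counts. Exact Poisson intervals (95%) hold counting error alone, because reads that carry no molecular identifier may copy 1 molecule.

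The genes and lists were chosen with earlier results of these data known. Named from each other list are the 2 tested genes with the largest spread between libraries and a mean of at least 1 CPM, any gene past the threshold, and the 5 genes outside the lists nearest in profile; marker lists are given as sums, and other genes named were picked after their values were seen. A gene that this rule names is not reported here. Alternatives were other scalings, no filter, DESeq2 1.42.0, limma voom 3.58.1, the replicate number as a block, a pseudocount of 5, and each library left out. Gene symbols are those of the tables, and promoter windows came from RefSeq, build GRCr8.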

Additional observations from a re-analysis of the deposited data

How the results depend on the processing

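Of the 8 genes, 0 were called with each scaling, without a filter, with DESeq2 and with limma voom. The count was also 0 under the replicate block and with each wild-type library left out. Isoforms were not refitted with other scalings, DESeq2 or limma voom. Of the isoforms of these genes, 0 were called unfiltered, under the block and without each wild-type library. Calls over all genes, 1 in the main test, were 2 without a filter, 52 with DESeq2, 16 with the replicate block and between 2 and 36 with single libraries left out. Whether the replicate numbers pair the libraries cannot be decided from these data. Deviations from the group means correlated at -0.0047 across genes for number 1 and -0.11 for number 2. With 2 transgenic libraries, however, their deviations are mirror images, so these correlations are tied to each other. With the block, Fos and Fosb had log2 fold changes of -0.90 and -1.59 (edgeR unadjusted p of 0.00334 and 0.00322, adjusted p of 0.231 and 0.225). Unadjusted edgeR p-values under 0.05 were more common throughout, for 1370 of 13304 genes with the block against 841 in the main test. Number 3 occurs only in wild-type, so under the block wild-type 3, the lowest library for both genes, does not enter the genotype estimate. The block is therefore close to leaving out wild-type 3, which gave -0.90 and -1.66.

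Signs turned for genes near 0 and for Nr4a1. With the replicate block Jun was -0.077 (isoform -0.071), and Nr4a1 was 0.10 with limma voom. With single libraries left out, Jun ran from -0.26 (without transgenic 1) through -0.08 (wild-type 3) and -0.05 (wild-type 2) to 0.27 (transgenic 2), Ier3 from -0.50 (transgenic 1) to 0.03 (wild-type 1) and 0.17 (transgenic 2), Fosl1 from -0.019 (transgenic 2) to 0.21 (transgenic 1) and Nr4a1 from -1.12 (wild-type 3) to 1.17 (wild-type 1). On the isoform table the ranges were -0.24 through -0.07 and -0.05 to 0.28 for Jun, -0.48 through 0.04 to 0.18 for Ier3, -0.011 to 0.22 for Fosl1, -1.14 to 1.13 for Nr4a1 and -1.44 to 0.29 for the Fosb isoform ENSRNOT00000072149. The cause was not tested.

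The median SD of the 8 genes was 0.46 with median-ratio scaling, 0.47 with library totals, 0.34 with a pseudocount of 5 (0.10 over all genes) and between 0.37 and 0.52 with single libraries left out; 7 of 8 genes, or 6 without wild-type 3, exceeded the median of all genes. The counts of 7 genes highest in wild-type 1 and 4 genes 2-fold apart in wild-type, whose alternatives were chosen after seeing the data, were the same with both other scalings; without wild-type 1 the second was 3. Depth limits Atf3, Fosb and Nr4a1 most, with as few as 30, 22 and 14 counts in a library, and 5 libraries limit every fold change.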

Other observations

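Outside the lists, 8599 genes with a mean of at least 10 CPM were ranked by how near their profile over the 5 libraries lay to the mean profile of the 8 immediate-early genes, as the root mean square distance of centred log2(CPM + 0.5) values. With 5 libraries and so many genes near profiles are bound to occur, so the ranking is a description and carries no test. The 8 genes themselves lay further from the mean profile of their fellow members, from 0.26 for Jun to 0.82 for Nr4a1. A gene near the mean profile therefore need not follow any single gene of the 8. The nearest was Ereg, the gene of the growth factor epiregulin, a ligand of the EGF receptor, at a distance of 0.08. Ereg had 16.8, 10.2 and 7.24 CPM across wild-type 1, 2 and 3 and 9.56 and 7.96 CPM in transgenic 1 and 2, so wild-type 1 was the highest and wild-type 3 the lowest library. Cryab, a small heat shock protein gene that the lens also expresses strongly, was next at 0.13, with 52.0, 27.3 and 26.3 CPM among wild-type and 30.7 and 32.9 CPM among transgenic corneas. Lens markers were highest in wild-type 1 as well, and their part in the Cryab level was not tested. Pdlim7, a gene of the actin cytoskeleton, had 16.6, 10.4 and 9.24 CPM among wild-type and 11.6 and 11.7 CPM among transgenic corneas (distance 0.14). Apol9a, an apolipoprotein L gene, had 32.8, 26.3 and 19.5 CPM against 23.2 and 19.3 CPM (distance 0.15), and its counts are fractional, so reads were shared with another feature. The remaining gene of the 5, known only by the identifier AABR07059663.1, lay at 0.14.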
